A study of Mus musculus with 8 samples.

Results

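The 10 genes described here mark conventional dendritic cells, the antigen-presenting cells that take up antigen in the spleen and show it to T cells. They were chosen by symbol: Itgax, Zbtb46 and Flt3 for conventional dendritic cells in general, Batf3, Xcr1 and Clec9a for the type 1 subset (cDC1), and Clec4a4, Esam, Cd209a and Sirpa for the type 2 subset (cDC2). Each had exactly 1 probe set on the array that is annotated to it alone, out of 19938 genes with such a probe set. Clec4a4 had a mean log2 intensity of 4.03, under the limit of 5.01 for testing, so 9 of the 10 are among the 14953 genes tested.

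RNA was measured on Affymetrix Mouse Gene 1.0 ST arrays in splenocytes, the mixed cells of a spleen digested with collagenase and DNase I, with 1 array per mouse. The groups were Sle1.3/E2-2het mice (n = 3), which carry Sle1.3 and are haplodeficient for E2-2, Sle1.3 mice (n = 3), labelled as lupus mice, and wild-type mice (WT, n = 2), all labelled as having the C57/B6 strain background. Tcf4 encodes E2-2, an E protein transcription factor on which plasmacytoid dendritic cells depend, and these cells are what the submitters call nonfunctional in the haplodeficient mice. The labels do not restrict the E2-2 deficiency to a cell type, and they give no ages. In such a mixture, fewer cells of a type and less RNA per cell cannot be told apart.

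Conventional dendritic cells arise in the marrow from progenitors that respond to Flt3 ligand, and Zbtb46 is switched on as they commit. The cDC1 subset depends on Batf3 and Irf8 and excels at presenting antigen from dead cells to CD8 T cells. The cDC2 subset depends on Irf4 and, in the spleen, on Notch2, and presents mainly to CD4 T cells. Plasmacytoid dendritic cells are a separate branch that is kept in its identity by E2-2 and opposed by Id2.

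RefSeq promoter windows, 250 bases before to 50 after an annotated start in build GRCm38.p6, were available for 7 of the 10 genes. Those of Cd209a and Zbtb46 are shown because these are the genes that passed a test below. Capitals mark the letters CANNTG, the E-box to which E proteins such as E2-2 bind, which reads the same on both strands.
Cd209a, chr8:3748935-3749234, minus strand: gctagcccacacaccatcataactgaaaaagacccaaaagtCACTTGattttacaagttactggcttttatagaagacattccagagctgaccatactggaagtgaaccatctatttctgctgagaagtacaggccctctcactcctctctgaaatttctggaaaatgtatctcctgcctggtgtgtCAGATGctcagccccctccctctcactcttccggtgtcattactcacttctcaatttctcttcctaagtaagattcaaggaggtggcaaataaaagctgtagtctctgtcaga
Zbtb46, chr2:181424339-181424638, minus strand: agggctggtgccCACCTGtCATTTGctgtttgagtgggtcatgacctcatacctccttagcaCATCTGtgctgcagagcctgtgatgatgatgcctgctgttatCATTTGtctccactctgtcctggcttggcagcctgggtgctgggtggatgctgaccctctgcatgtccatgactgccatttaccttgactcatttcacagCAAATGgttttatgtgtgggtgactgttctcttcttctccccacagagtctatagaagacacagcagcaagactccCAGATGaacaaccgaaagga
The Cd209a window holds 2 such matches, CACTTG at -209 and CAGATG at -63, counted in bases from the start site to the first letter of the match. The Zbtb46 window holds 6, and it lies inside the annotated gene (chromosome 2, 181371009 to 181493262), at an internal start. All 7 windows held at least 1 match, as did 72.3% of the 32851 promoter windows of that length, and 17.6% of all windows held 3 or more. The letters GAAA, any 2 bases and GAAA again, a form of the interferon-stimulated response element, were searched on both strands and were in none of the 7 and in 3.44% of all windows. A match is a string of letters, not a measured binding site.

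The arrays fell into 2 sets by their lowest intensity, which was 11.2 on the linear scale in Sle1.3/E2-2het replicate 3, 10.9 in Sle1.3 replicate 3, and between 4.57 and 5.11 in the other 6. Array set is therefore a term of the test beside genotype. Values within the first array set are given for Cd209a, Zbtb46 and some other genes. They are not given for list genes and Clec4a relatives called only against WT. Tcf4 had a log2 intensity of 8.18, 8.13 and 9.25 in Sle1.3/E2-2het mice (replicates 1, 2 and 3), 8.67, 8.63 and 9.06 in Sle1.3 mice, against 9.02 and 8.80 in WT mice. It differed by -0.64 in Sle1.3/E2-2het versus WT (SE 0.17, limma adjusted p = 0.0163) and by -0.27 in Sle1.3/E2-2het versus Sle1.3 (SE 0.15, adjusted p = 0.575), and the library labelled Sle1.3/E2-2het replicate 3 had the highest Tcf4 of all 8. Xist, the transcript of the inactive X chromosome in females, was 3.79, 4.29 and 11.82 in Sle1.3/E2-2het, 10.77, 10.68 and 11.90 in Sle1.3, against 4.11 and 3.75 in WT mice, so that Sle1.3 replicate 3, labelled male, went against its label. All Sle1.3 mice and no WT mouse had high Xist, so sex and genotype cannot be told apart there. In the first array set both Sle1.3/E2-2het mice had low and both Sle1.3 mice high Xist, and in the second set, with 1 array each, both had high Xist.

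Among the 10 genes, Cd209a differed most between the genotypes: it was lower in every Sle1.3 mouse than in any Sle1.3/E2-2het or WT mouse. All Sle1.3 values were below all Sle1.3/E2-2het values for 3.04% of genes tested, and below both WT values for 24.4%. Of the 9 genes tested, 1 was higher in Sle1.3/E2-2het than in Sle1.3 mice (Cd209a) and 0 were lower, while 0.615% of all genes tested passed (limma, Benjamini-Hochberg adjusted p under 0.05). Against WT, 1 of 9 was lower in Sle1.3/E2-2het mice (Zbtb46) and 0 were higher, where 34.1% of all genes passed (10.7% higher, 23.4% lower). Also against WT, 2 of 9 were lower in Sle1.3 mice (Zbtb46 and Cd209a) and 0 were higher, where 24.0% of all genes passed (7.46% higher, 16.5% lower). Taking both directions together, neither share against WT stands above that of all genes. The share lower in Sle1.3 was 22.2% of the 9, from 2 genes, beside 16.5% of all genes. All 3 Sle1.3 values were above both WT values for 0 of the 9, and for 21.5% of all genes. The median log2 difference of the 9 genes was 0.07 in Sle1.3/E2-2het versus Sle1.3, 0.02 in Sle1.3/E2-2het versus WT and -0.09 in Sle1.3 versus WT, and over all genes tested it was 0.00, -0.09 and -0.06. The comparisons share arrays in pairs, so their results are not separate observations.

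**Figure D1:**
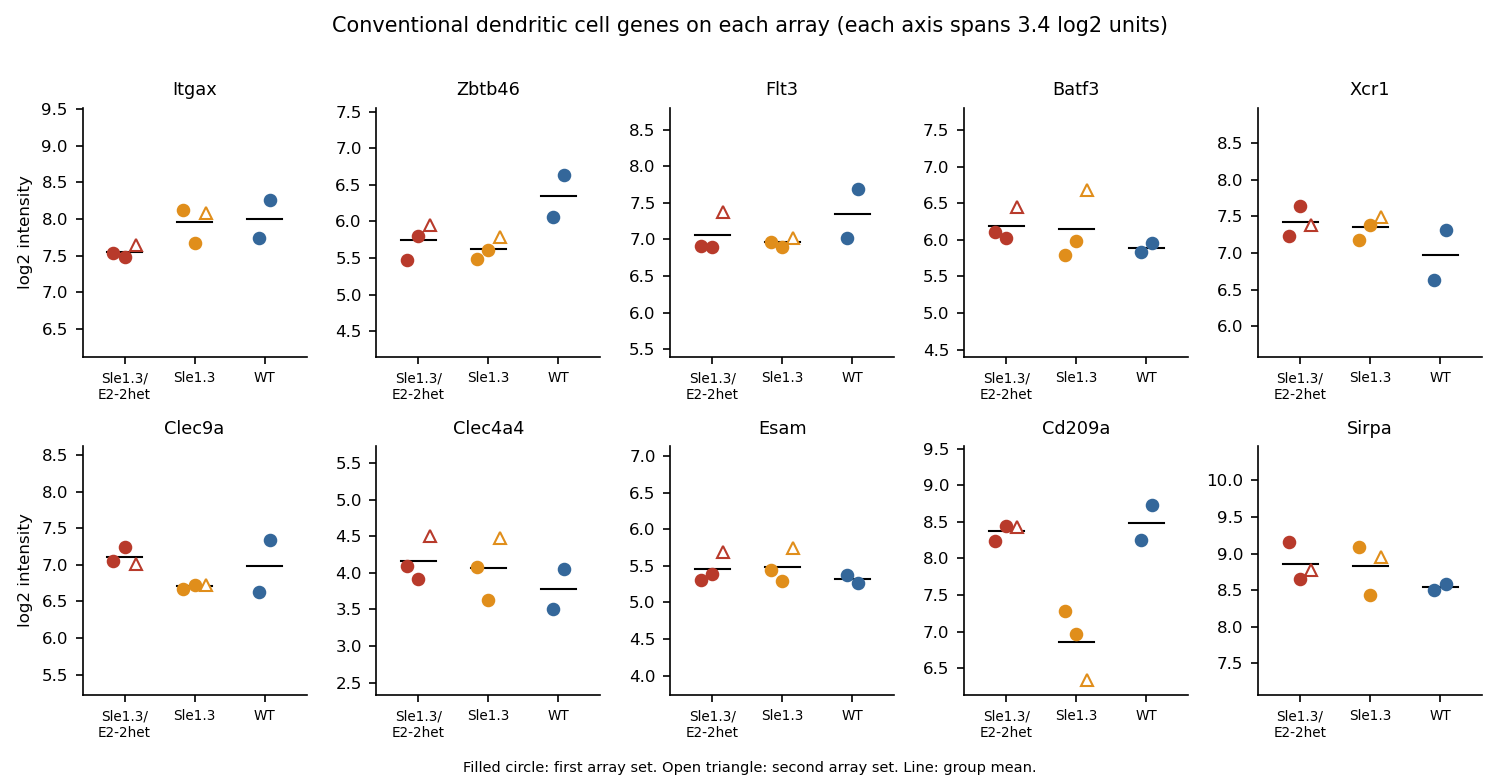
Log2 intensity of the 10 conventional dendritic cell genes on each array, by genotype, with each panel's vertical axis spanning the same number of log2 units. Points are single mice, lines are group means and open triangles mark the second array set. Cd209a in Sle1.3 mice (6.34 to 7.28) lies under all other arrays, Zbtb46 is highest in both WT mice, and Flt3, Xcr1, Esam and Clec4a4 overlap between all genotypes.

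Cd209a encodes a C-type lectin of the DC-SIGN family, which binds sugars on microbes. Its log2 intensity was 8.24, 8.45 and 8.43 in Sle1.3/E2-2het mice, 7.28, 6.96 and 6.34 in Sle1.3 mice, against 8.25 and 8.72 in WT mice. The Sle1.3 values stood apart below both other genotypes, whose values overlapped each other. Such a separation from Sle1.3/E2-2het was seen for 3.04% of genes tested, and from WT for 24.4%. The means were 8.37 ± 0.12 in Sle1.3/E2-2het (SD, n = 3), 6.86 ± 0.48 in Sle1.3 (n = 3) and 8.49 ± 0.33 in WT mice (n = 2). Cd209a was higher in Sle1.3/E2-2het than in Sle1.3 mice by 1.51 (SE 0.19, limma adjusted p = 0.00488), a 2.85-fold difference. The difference was 1.22 in the first array set, where only the Sle1.3 mice had high Xist. It was 2.09 in the second, from 1 mouse of each genotype, both with high Xist. That Sle1.3/E2-2het mouse had the highest Tcf4 of all 8 arrays (9.25). Cd209a was lower in Sle1.3 than in WT mice by a log2 difference of -1.51 (SE 0.22, adjusted p = 0.00138). The difference was -0.00 in Sle1.3/E2-2het versus WT, with a 95% interval from -0.49 to 0.49. The call in Sle1.3/E2-2het versus Sle1.3 was lost when array set was left out of the test (1.51, adjusted p = 0.0982) or replaced by labelled sex (1.65, adjusted p = 0.164). Labelled sex takes Sle1.3 replicate 3 as male, against its Xist, so a call lost under it does not show a part of sex. The Cd209a call held in the first array set alone (adjusted p = 0.0195).

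The other cDC2 genes did not pass in any comparison. Esam, an adhesion molecule of Notch2-dependent cDC2 that endothelium and platelets also express, was 5.30, 5.39 and 5.69 in Sle1.3/E2-2het, 5.44, 5.29 and 5.74 in Sle1.3, against 5.37 and 5.27 in WT mice. Its highest values were those of both second-set arrays, and its difference in Sle1.3/E2-2het versus Sle1.3 had a 95% interval from -0.28 to 0.22. In that comparison 0 of 7 endothelial genes passed, and 1 of 5 platelet genes was lower (Ppbp, -1.01, limma adjusted p = 0.0477). Of all genes tested 0.615% passed there, and 0.461% were lower. The Ppbp call was lost with array set left out (adjusted p = 0.388), in the first array set alone (0.115), after quantile normalization (0.0675) or median centring (0.0568), with no filter (0.0703) and on leaving out any 1 array except Sle1.3 replicate 2. Sirpa, the inhibitory receptor for Cd47 on cDC2, macrophages and other myeloid cells, was 9.16, 8.65 and 8.78 in Sle1.3/E2-2het, 9.09, 8.44 and 8.95 in Sle1.3, against 8.51 and 8.58 in WT mice. All 3 Sle1.3/E2-2het values were above both WT values, as for 25.9% of genes tested, with a difference of 0.31 (SE 0.21, limma adjusted p = 0.273). Clec4a4, the DCIR2 lectin by which splenic cDC2 are recognised, was near the low end of each array at 4.09, 3.91 and 4.50 in Sle1.3/E2-2het, 4.08, 3.63 and 4.48 in Sle1.3, against 3.51 and 4.05 in WT mice. The highest Clec4a4 value of each Sle1.3 genotype was again its second-set array, and the groups overlapped.

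Of the cDC1 genes none passed, and Clec9a was the one whose values separated the Sle1.3/E2-2het mice from the Sle1.3 mice. Clec9a, a receptor for actin filaments exposed by dead cells, was 7.06, 7.24 and 7.01 in Sle1.3/E2-2het, 6.67, 6.72 and 6.73 in Sle1.3, against 6.63 and 7.33 in WT mice. Every Sle1.3/E2-2het value was above every Sle1.3 value, as for 3.04% of genes tested, while the WT mice spanned both groups. The difference was 0.40 (SE 0.17, unadjusted p = 0.0348, limma adjusted p = 0.424), and it was 0.45 within the first array set, against 0.28 within the other. Without WT replicate 1, Clec9a differed by -0.61 in Sle1.3 versus WT (adjusted p = 0.0312), and without WT replicate 2 by 0.095 (adjusted p = 0.769). Xcr1, the receptor for the chemokine Xcl1, was 7.23, 7.64 and 7.39 in Sle1.3/E2-2het, 7.18, 7.38 and 7.50 in Sle1.3, against 6.63 and 7.32 in WT mice. Its groups overlapped in all 3 comparisons, and the difference in Sle1.3/E2-2het versus WT was 0.42 (SE 0.21, adjusted p = 0.138, and 0.0422 with the replicate number as a block). Without WT replicate 2 it was 0.76 (adjusted p = 0.0468), and without WT replicate 1 it was 0.076 (adjusted p = 0.779). Batf3, the AP-1 family factor on which cDC1 depend, was 6.10, 6.02 and 6.45 in Sle1.3/E2-2het, 5.79, 5.99 and 6.68 in Sle1.3, against 5.83 and 5.96 in WT mice. Both second-set arrays gave the highest Batf3 values, and the Sle1.3/E2-2het versus Sle1.3 difference was 0.17 within the first array set, against -0.23 within the other. Over both sets the 95% interval of that difference ran from -0.25 to 0.32. All 3 Sle1.3/E2-2het values of Batf3 were above both WT values, as for 25.9% of genes tested. The difference from WT was 0.10, with an interval from -0.23 to 0.43.

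Of the genes shared by all conventional dendritic cells, Zbtb46 was lower in both Sle1.3 genotypes than in WT mice. Zbtb46, a zinc finger repressor that marks conventional dendritic cells and their committed precursors, was 5.47, 5.81 and 5.95 in Sle1.3/E2-2het, 5.48, 5.60 and 5.79 in Sle1.3, against 6.06 and 6.64 in WT mice. The means were 5.74 ± 0.24 in Sle1.3/E2-2het (SD, n = 3), 5.62 ± 0.15 in Sle1.3 (n = 3) and 6.35 ± 0.41 in WT mice (n = 2). No mouse of either Sle1.3 genotype reached the lower WT value, as for 23.2% of genes in Sle1.3/E2-2het versus WT and 24.4% in Sle1.3 versus WT. The log2 difference was -0.70 in Sle1.3/E2-2het versus WT (SE 0.19, limma adjusted p = 0.0149) and -0.82 in Sle1.3 versus WT (SE 0.19, adjusted p = 0.00944). In the first array set alone they were -0.71 (adjusted p = 0.0234) and -0.81 (adjusted p = 0.0242). Without WT replicate 2 they were -0.41 (adjusted p = 0.161) and -0.53 (adjusted p = 0.101), so both calls rest on that array. They were also lost with array set left out (adjusted p = 0.109 and 0.0806) and with labelled sex in its place (adjusted p = 0.163 and 0.215). Leaving out replicate 1 of Sle1.3/E2-2het gave -0.57 for Zbtb46 versus WT (adjusted p = 0.0631). In Sle1.3/E2-2het versus Sle1.3 the Zbtb46 difference was 0.12, with a 95% interval from -0.22 to 0.46.

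Itgax, which encodes CD11c, an integrin chain also found on monocytes, macrophages and natural killer cells, was 7.53, 7.49 and 7.64 in Sle1.3/E2-2het, 8.13, 7.67 and 8.09 in Sle1.3, against 7.74 and 8.26 in WT mice. All Sle1.3/E2-2het values were below all Sle1.3 values, as for 4.33% of genes, and below both WT values, as for 23.2%. The differences were -0.41 from Sle1.3 (SE 0.16, adjusted p = 0.379) and -0.50 from WT (SE 0.19, adjusted p = 0.0561), and the difference from WT passed with the replicate block (adjusted p = 0.0457), with median centring (-0.58, adjusted p = 0.0377), without WT replicate 1 (-0.76, adjusted p = 0.0221) and without Sle1.3 replicate 1 (-0.53, adjusted p = 0.0470). It was -0.24 without WT replicate 2 (adjusted p = 0.443) and -0.27 after quantile normalization (adjusted p = 0.282). Flt3, the receptor for Flt3 ligand on dendritic cell progenitors and mature dendritic cells, was 6.91, 6.90 and 7.37 in Sle1.3/E2-2het, 6.96, 6.90 and 7.03 in Sle1.3, against 7.01 and 7.69 in WT mice. WT replicate 2 had the highest Flt3 value, and no comparison passed, with a difference of -0.48 in Sle1.3 versus WT (SE 0.20, adjusted p = 0.0909). Without WT replicate 1, Flt3 differed by -0.72 in Sle1.3/E2-2het versus WT (adjusted p = 0.0182) and by -0.82 in Sle1.3 versus WT (adjusted p = 0.0171). Without WT replicate 2 the same differences were -0.047 (adjusted p = 0.879) and -0.14 (adjusted p = 0.659). WT replicate 2 was the higher WT array for 9 of the 10 genes, all but Esam.

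**Figure D2:**
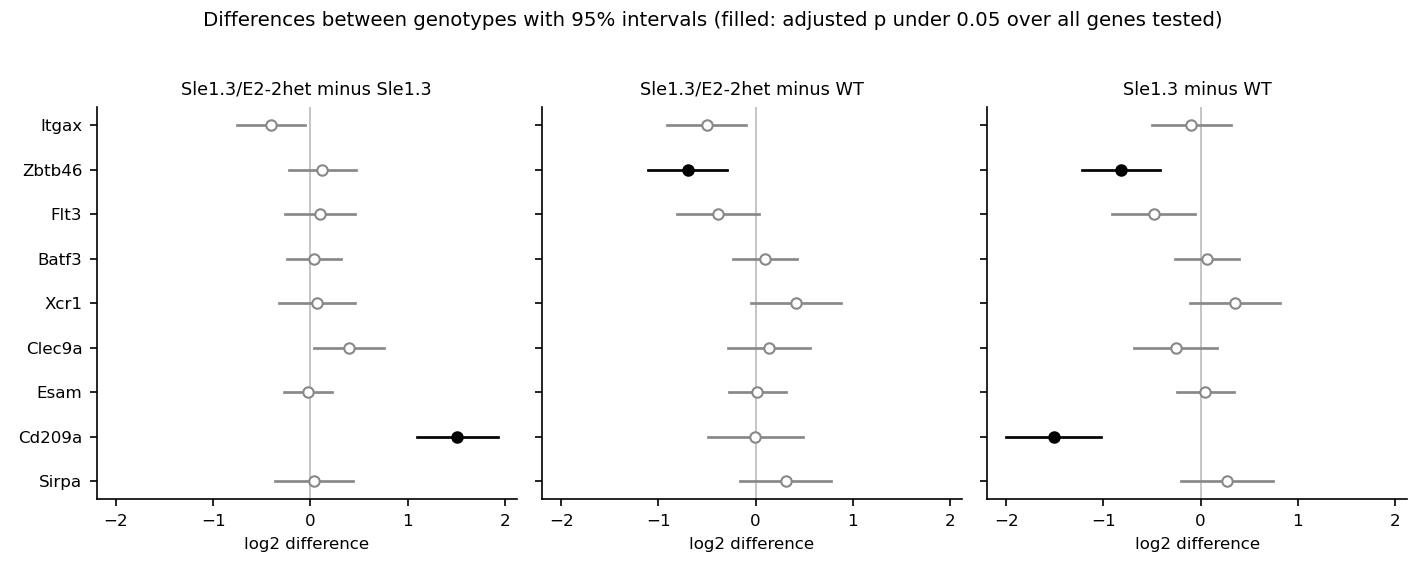
Log2 differences of the 9 tested genes in the 3 comparisons, with 95% intervals from the limma fit; filled points passed at an adjusted p under 0.05 over all genes tested. Cd209a lies at 1.51 in Sle1.3/E2-2het minus Sle1.3, at -0.00 in Sle1.3/E2-2het minus WT and at -1.51 in Sle1.3 minus WT, and Zbtb46 lies at -0.70 and -0.82 in both comparisons with WT.

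Cd209a has near relatives in a cluster on chromosome 8 (Cd209a itself at 3743395 to 3748984, build GRCm38.p6), and signal of one may come from another through shared probe sequence. These relatives were chosen after their values were seen. Cd209d (chromosome 8, 3871824 to 3878548) was 5.51, 5.73 and 5.86 in Sle1.3/E2-2het, 4.83, 4.89 and 5.26 in Sle1.3, against 5.49 and 5.85 in WT mice. Like Cd209a it was lowest in the 3 Sle1.3 mice, with a difference of 0.71 from Sle1.3 in Sle1.3/E2-2het mice (SE 0.13, limma adjusted p = 0.0401) and of -0.79 from WT in Sle1.3 mice (SE 0.16, adjusted p = 0.00513). The Cd209d values of Sle1.3 replicates 1 and 2 were under 5.01, the limit set on a gene's mean for testing. In the first array set alone the difference from Sle1.3 was 0.76 (adjusted p = 0.102), and with array set left out its adjusted p was 0.430. The call was lost with log2(intensity + 16) (0.51, adjusted p = 0.0843) and after median centring (0.67, adjusted p = 0.0580). That call was also lost on leaving out any 1 array other than Sle1.3 replicate 2 or replicate 1 of Sle1.3/E2-2het (adjusted p up to 0.202). The Cd209d difference in Sle1.3 versus WT did not pass with array set left out (adjusted p = 0.0783), with labelled sex in its place (0.256) or without WT replicate 2 (-0.61, adjusted p = 0.0561). Cd209b, a lectin of marginal zone macrophages, differed by -0.08 in Sle1.3/E2-2het versus Sle1.3 (SE 0.13, adjusted p = 0.869), Cd209e by -0.15 (adjusted p = 0.725) and Cd209g by 0.06 (adjusted p = 0.906). Cd209c and Cd209f were below the limit for testing.

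The genes whose pattern over the 8 arrays was most like that of Cd209a were Trim13, Il12rb2 and Arg2, with mean absolute differences from it of 0.19, 0.24 and 0.30 log2 units after each gene was centred on its own mean. Cd209a itself spanned 2.38 log2 units. Trim13, a ubiquitin ligase of the endoplasmic reticulum, was 7.34, 7.25 and 7.47 in Sle1.3/E2-2het, 6.45, 6.64 and 5.26 in Sle1.3, against 7.17 and 7.57 in WT mice. Il12rb2, a chain of the interleukin-12 receptor on natural killer and T cells, was 7.37, 7.63 and 7.84 in Sle1.3/E2-2het, 6.69, 6.80 and 6.21 in Sle1.3, against 8.05 and 8.25 in WT mice. Both were lowest in the 3 Sle1.3 mice, as was Arg2. For Zbtb46 the nearest genes were Stxbp3 (0.06), Pop1 (0.07) and Rspry1 (0.07), and for Clec9a they were Raver2 (0.08), S100a4 (0.08) and Pid1 (0.08). Over only 8 arrays, such matches are a description of these arrays.

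**Figure D3:**
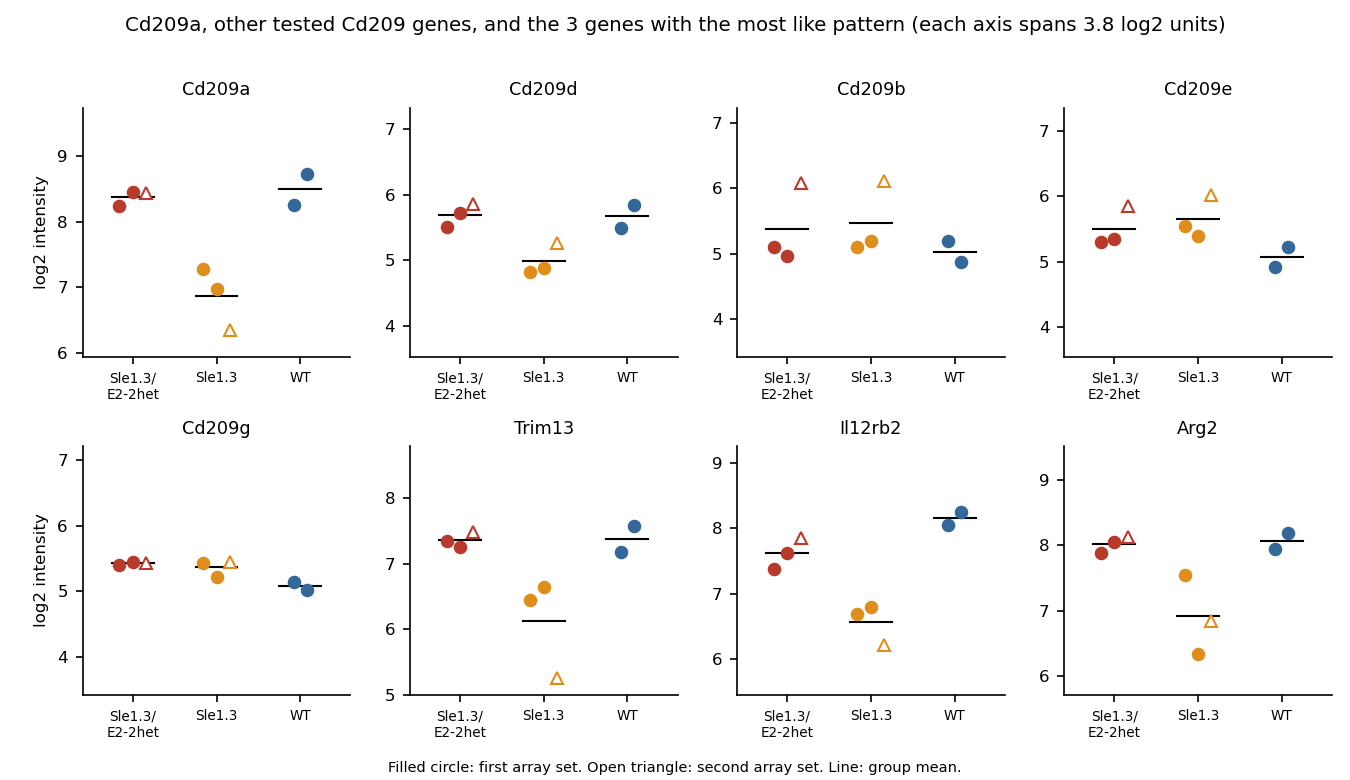
Log2 intensity on each array of Cd209a, the other tested Cd209 genes, and Trim13, Il12rb2 and Arg2, with each panel's vertical axis spanning the same number of log2 units; points are mice, lines group means and open triangles the second array set. Cd209a, Cd209d, Trim13, Il12rb2 and Arg2 are lowest in Sle1.3 mice, while Cd209b, Cd209e and Cd209g overlap in Sle1.3/E2-2het versus Sle1.3.

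Other genes of dendritic cell development were taken from lists of transcription factors, cDC1, cDC2, growth factor and maturation genes. In Sle1.3/E2-2het versus Sle1.3, 0 tested members of these lists passed in either direction, where 0.615% of all genes did. Of 15 transcription factors, Bcl6 (mean log2 intensity 7.10 in Sle1.3/E2-2het and 7.68 in Sle1.3, difference -0.58, SE 0.14, adjusted p = 0.0953) and Batf (-0.43, adjusted p = 0.144) had the smallest p. Irf8, on which cDC1 depend, differed by -0.38 (adjusted p = 0.248), Irf4, which acts in cDC2, by -0.10 (adjusted p = 0.848), and Id2, the antagonist of E proteins, by 0.00 (adjusted p = 0.998). The median of the 15 was -0.21, against 0.00 over all genes. Xcl1, the ligand of Xcr1 made by natural killer and T cells, was 7.59, 8.19 and 8.14 in Sle1.3/E2-2het, 7.25, 7.28 and 7.09 in Sle1.3, against 8.05 and 8.06 in WT mice. It was higher in every Sle1.3/E2-2het than in every Sle1.3 mouse, as for 3.04% of genes tested. The difference missed the threshold (0.77, SE 0.16, adjusted p = 0.0570). Xcl1 was lower in Sle1.3 than in WT mice (-0.86, adjusted p = 0.00816). Cd86, a costimulatory ligand of dendritic and B cells, differed by 0.70 (SE 0.16, adjusted p = 0.0811).

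Against WT, most members of these lists that passed were lower, as over all genes. The calls below are from the test with array set as a term, and other settings are not given for each gene. With array set left out, genes called fell from 5092 to 1076 in Sle1.3/E2-2het versus WT. The share of them that was higher rose from 31.4% to 48.0%. In Sle1.3 versus WT genes called fell from 3585 to 879, and the share higher rose from 31.1% to 45.3%. The excess of lower genes against WT thus depends on the terms of the test. Of the 15 transcription factors 6 were lower and 0 higher in Sle1.3/E2-2het mice, and 2 were lower and 0 higher in Sle1.3 mice, beside 23.4% and 16.5% of all genes lower. Relb, an NF-kappa B subunit needed by splenic cDC2, was lower in both, by a log2 difference of -0.76 (SE 0.16, adjusted p = 0.00514) in Sle1.3/E2-2het and -0.80 (SE 0.16, adjusted p = 0.00504) in Sle1.3 mice, and Notch2 differed by -0.67 (adjusted p = 0.00730) and -0.41 (adjusted p = 0.0641). Of 12 maturation and migration genes 5 were lower and 0 higher in each genotype: Cd86 differed by -0.74 in Sle1.3/E2-2het and -1.44 in Sle1.3, Cd80 by -0.70 and -0.91, and Ccl5 by -0.70 and -0.88, all past the threshold. Ccr7, the receptor that guides mature dendritic cells and naive T cells, differed by -0.43 (adjusted p = 0.0898) in Sle1.3/E2-2het and -0.76 (adjusted p = 0.0135) in Sle1.3 mice. Of 12 further cDC1 genes, Wdfy4, needed for cross-presentation by cDC1, was lower in both (-0.71 and -0.55), and Tlr3, a sensor of double-stranded RNA, was higher in Sle1.3/E2-2het mice (0.59, SE 0.17, adjusted p = 0.0215), with Cd24a (0.45, adjusted p = 0.0430). Of 9 tested cDC2 genes, Clec4a2 was higher in both (1.15 and 1.24, adjusted p = 0.0313 and 0.0299), Cx3cr1 was higher in Sle1.3 (0.58, adjusted p = 0.0301) and Cd7 lower in Sle1.3 (-0.94, adjusted p = 0.00923). Of 12 growth factor and partner genes 1 was higher and 2 lower in Sle1.3/E2-2het, and 0 higher and 2 lower in Sle1.3. Among them Csf2rb, the shared chain of the GM-CSF receptor, differed by -1.02 and -1.37 (adjusted p = 0.0126 and 0.00429), while Flt3l, the ligand of Flt3, differed by 0.05 (adjusted p = 0.797) and 0.10 (adjusted p = 0.600).

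Markers of other spleen cells that transcribe some of the same genes also moved. In Sle1.3/E2-2het versus Sle1.3, 2 of 12 monocyte genes were lower and 0 higher, beside 0.461% of all genes lower and 0.154% higher: Fcgr4 (-2.33, SE 0.26, adjusted p = 0.00279) and Cd300e (-1.12, SE 0.19, adjusted p = 0.0233). Of the 12 differences, 6 were above 0 and 6 below, and their median was -0.07. The summed linear intensity of the 12 genes was 4424 to 6780 in Sle1.3/E2-2het, 4667 to 7682 in Sle1.3 and 4877 to 4956 in WT mice. Of 13 splenic macrophage genes 2 were higher and 0 lower: Slc40a1, the iron exporter ferroportin (1.22, SE 0.17, adjusted p = 0.00912), and Vcam1 (1.09, SE 0.20, adjusted p = 0.0329). Of the 13 differences, 10 were above 0 and 3 below, and their median was 0.21. The sum of the 13 genes was 3057 to 4924 in Sle1.3/E2-2het, 2684 to 3642 in Sle1.3 and 1577 to 2280 in WT mice. Of 8 natural killer cell genes 1 was higher, Klra8 (0.94, SE 0.13, adjusted p = 0.00782), all 8 differences were above 0, and the sum was 1395 to 2058 in Sle1.3/E2-2het, 1071 to 1313 in Sle1.3 and 2048 to 2304 in WT mice. This was the one of these sums that, like Cd209a, was lowest in all 3 Sle1.3 mice. It was 1395 and 1519 in replicates 1 and 2 of Sle1.3/E2-2het, below both WT sums, whereas the Cd209a difference from WT was -0.00. Within the list, Il2rb was 9.05, 8.82 and 9.63 in Sle1.3/E2-2het and 9.02, 9.10 and 8.96 in Sle1.3 mice, and Eomes also overlapped. Against WT, 1 of the 8 was higher and 2 lower in Sle1.3/E2-2het (all genes 10.7% and 23.4%). In Sle1.3, 0 were higher and 5 lower (all genes 7.46% and 16.5%). With array set left out of the test Fcgr4 still passed (adjusted p = 0.0432), and Cd300e, Slc40a1, Vcam1 and Klra8 did not (adjusted p between 0.236 and 0.458). With labelled sex in its place none of them passed, and Fcgr4 had an adjusted p of 0.0867. In the first array set alone Cd300e was -0.86 (adjusted p = 0.118), Vcam1 1.22 (adjusted p = 0.0620), Slc40a1 1.28 (adjusted p = 0.0277) and Klra8 1.04 (adjusted p = 0.0158). The calls of Cd300e and Vcam1 were lost on leaving out any 1 array other than Sle1.3 replicate 2 or replicate 1 of Sle1.3/E2-2het (adjusted p up to 0.120 and 0.109), and those of Fcgr4, Slc40a1 and Klra8 held with each array left out.

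Plasmacytoid dendritic cell genes had 0 of 13 tested members past the threshold in Sle1.3/E2-2het versus Sle1.3. Siglech, their defining lectin, was 6.33, 6.25 and 6.71 in Sle1.3/E2-2het, 6.17, 6.10 and 6.44 in Sle1.3, against 6.97 and 7.07 in WT mice. It was lower than WT in both, by a log2 difference of -0.71 (SE 0.13, adjusted p = 0.00349) in Sle1.3/E2-2het and -0.90 (SE 0.13, adjusted p = 0.00138) in Sle1.3 mice. Of the 13 plasmacytoid dendritic cell genes, 4 were lower in Sle1.3/E2-2het and 5 in Sle1.3 than in WT mice, and 0 were higher. The median log2 difference of the 13 was -0.31 and -0.03, against -0.09 and -0.06 over all genes. Of 6 B cell genes 0 passed in Sle1.3/E2-2het versus Sle1.3, while 3 were lower in Sle1.3/E2-2het and 2 in Sle1.3 than in WT mice. Of 6 T cell genes 0 passed in Sle1.3/E2-2het versus Sle1.3, while 4 were lower in Sle1.3/E2-2het and 2 in Sle1.3 than in WT mice. Of 7 progenitor genes 0 passed in Sle1.3/E2-2het versus Sle1.3; against WT 1 was lower in Sle1.3/E2-2het, and 1 was higher and 2 lower in Sle1.3. Over all genes 23.4% were lower in Sle1.3/E2-2het and 16.5% in Sle1.3 than in WT mice. The sum of the plasmacytoid dendritic cell list was 3669 to 5330 in Sle1.3/E2-2het, 3995 to 4634 in Sle1.3 and 5897 to 6240 in WT mice. Neutrophil genes, 9 of 9 higher than WT in both genotypes, beside 10.7% of all genes in Sle1.3/E2-2het and 7.46% in Sle1.3, had a sum of 8874 to 25127 in Sle1.3/E2-2het, 8230 to 27232 in Sle1.3 and 1870 to 2847 in WT mice. The part of any of these cells in the values of Cd209a, Zbtb46, Itgax, Clec9a and Sirpa was not tested.

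**Figure D4:**
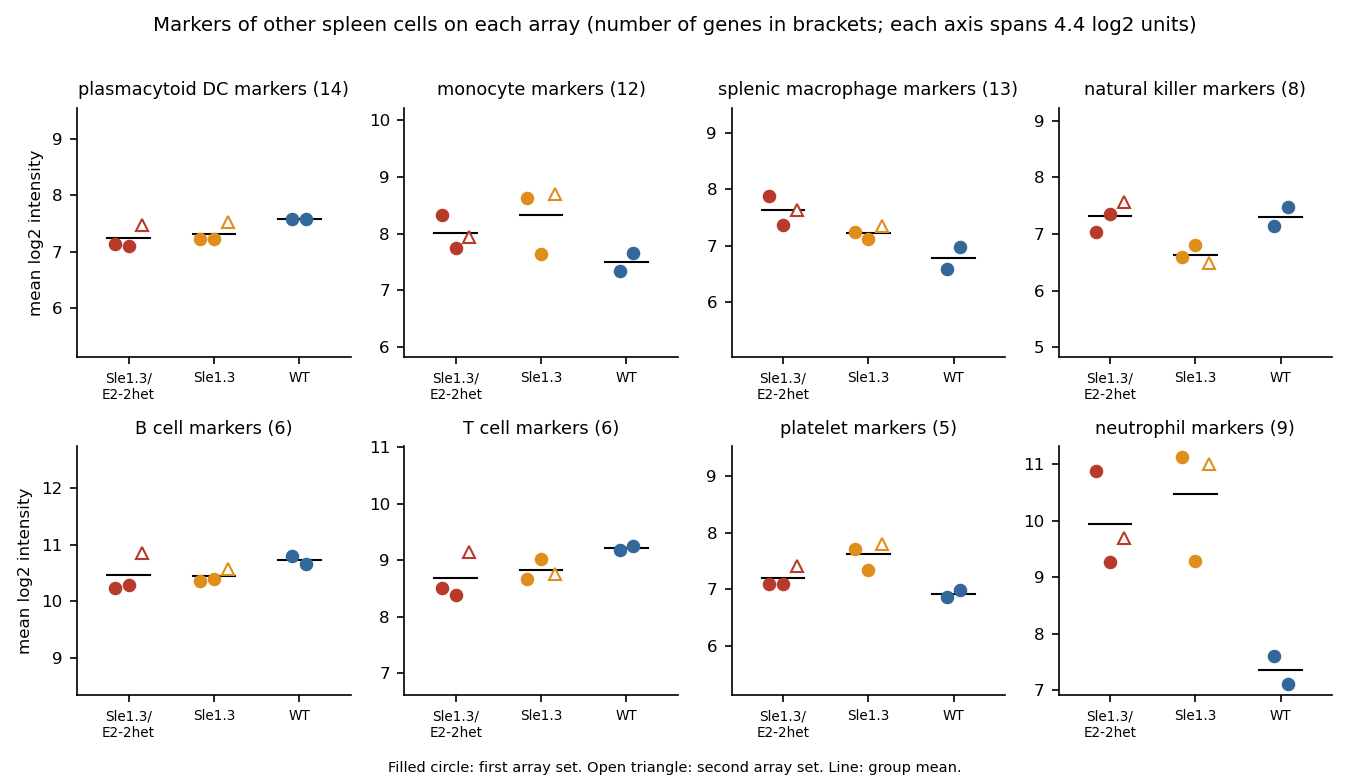
Mean log2 intensity on each array of marker lists for 8 other spleen cell types, with the number of genes in brackets and each panel's vertical axis spanning the same number of log2 units; points are mice, lines group means and open triangles the second array set. Natural killer cell markers are lowest in Sle1.3 mice, and neutrophil markers are lowest in both WT mice.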

How the data were processed

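Splenocyte RNA of 8 mice was measured on 1 array each. The deposited table holds 35556 probe sets, with each value an intensity that is not logged. The submitters' processing notes name RMA and Affymetrix Expression Console, their roles, versions and annotation build being not given in the sources used here. Array quantiles differed, so the arrays had not been brought to one distribution, and log2 was taken here. The interquartile range of log2 intensity was 2.77 and 2.97 in the WT arrays. It was 2.43 to 2.57 in Sle1.3 and 2.41 to 2.46 in Sle1.3/E2-2het arrays, so this spread goes with genotype. Beyond quantile normalization as an alternative, its part in the differences from WT was not tested. No detection calls came with the values, and precision is limited by how few arrays there are.

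Of the probe sets, 21789 were annotated to 1 symbol, 1621 to several and 12146 to none; those with several or none were not used. For each of 19938 genes the probe set of highest mean log2 intensity was kept, and genes above the 25th percentile of mean log2 intensity (5.01) were tested. The tests were two-sided and used lmFit and eBayes of limma 3.58.1 (R 4.3.3) on all 8 arrays with genotype and array set as terms (4 residual degrees of freedom), and p-values were adjusted by Benjamini-Hochberg over all genes tested. The script was checked on simulated arrays with known changes. Array set was assigned at 2 times the lowest array minimum. It is not in the labels, and no scan date or slide came with the values.

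Arrays of both Sle1.3 genotypes that share a number deviated together (correlations across genes of 0.573, 0.369 and 0.618), which is a pairing seen in the values alone. Replicate 3 of both is the second array set, which enters these values. Within the first set, the difference of replicate 1 minus replicate 2 correlated at 0.358 between these genotypes. The correlation was 0.202 between Sle1.3/E2-2het and WT, and 0.0963 between Sle1.3 and WT. Only the replicate block, an alternative, uses this pairing. The 10 genes, the lists and the model terms were chosen with earlier results of these data known. Every member is named; from each other list the rule took up to 4 genes past the threshold with the smallest adjusted p, or 2 with the smallest p where none passed, and for each member the 3 most like genes. Other genes named from the lists (Irf8, Irf4, Id2, Flt3l, and Notch2 and Ccr7 in comparisons where the rule did not take them) and the Cd209 and Clec4a relatives were added after their values were seen. Alternatives were labelled sex, genotype alone, the replicate block, the first array set, quantile normalization, median centring, other filters, log2(intensity + 16), limma-trend and leaving out each array.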

Additional observations from a re-analysis of the deposited data

How the results depend on the processing

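The number of genes called in Sle1.3/E2-2het versus Sle1.3, 92 in limma with array set in the test (23 higher and 69 lower), was 0 with labelled sex in its place (392 at an unadjusted p under 0.05), 2 with genotype alone, 262 with the replicate block and 60 with log2(intensity + 16). The sex label of Sle1.3 replicate 3 goes against its Xist, and that setting also leaves array set out. Counts under labelled sex therefore do not show what sex contributes. For Sle1.3/E2-2het versus WT the number called was 5092, with 492 under labelled sex, 1076 with genotype alone and 2792 after quantile normalization. The share higher was 31.4%. It was 21.4% after median centring and 15.1% with the filter at the 50th percentile. With no filter it was 44.4%, with genotype alone 48.0% and under labelled sex 52.0%. For Sle1.3 versus WT the number called was 3585, with 199 under labelled sex and 879 with genotype alone. It was 2367 in the first array set and 2245 after quantile normalization. The share higher was 31.1%, against 42.1% after quantile normalization, 45.3% with genotype alone and 17.4% with the filter at the 50th percentile. Leaving out 1 array gave 26 (without Sle1.3/E2-2het replicate 2) to 165 (without Sle1.3 replicate 2) genes in Sle1.3/E2-2het versus Sle1.3, 1634 (without WT replicate 2) to 5214 in Sle1.3/E2-2het versus WT, and 1107 (without WT replicate 2) to 3649 in Sle1.3 versus WT. The first count was also 36 without either WT array and 28 without Sle1.3 replicate 1; the second was 3320 and 3051 without replicate 1 and replicate 2 of Sle1.3/E2-2het; the third was 1810 without Sle1.3 replicate 1 and 2367 without replicate 3 of either Sle1.3 genotype. Where 1 WT mouse remains, it is assumed to vary like the other groups. Cd209a passed in Sle1.3/E2-2het versus Sle1.3 under 8 of 10 settings, labelled sex and genotype alone being the exceptions, and with each array left out (1.22 to 1.68), and between Sle1.3 and WT under all 10 and with each array left out (-1.75 to -1.28). The replicate block, which pairs same-numbered mice, changed the calls of Itgax and Xcr1 in Sle1.3/E2-2het versus WT and no other call among the 10 genes.

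Zbtb46 was under the filter at the 50th percentile and so not tested there. The differences that changed sign did not pass where they had done so. In Sle1.3/E2-2het versus Sle1.3, Flt3 was -0.028 in the first array set, Batf3 was -0.030 with labelled sex, -0.0028 after quantile normalization and -0.0049 after median centring, and Sirpa was -0.014 with labelled sex and -0.0033 after median centring. In Sle1.3/E2-2het versus WT, Esam was -0.15 after quantile normalization and -0.060 after median centring, and Cd209a was 0.25 after quantile normalization. In Sle1.3 versus WT, Itgax was 0.10 and Esam -0.057 after quantile normalization, and Batf3 was -0.0050 in the first set. With 1 array left out, the ranges that crossed 0 in Sle1.3/E2-2het versus Sle1.3 were -0.028 to 0.15 for Flt3, -0.058 to 0.17 for Batf3, -0.075 to 0.16 for Xcr1, -0.072 to 0.013 for Esam and -0.18 to 0.20 for Sirpa. In Sle1.3/E2-2het versus WT they were -0.21 to 0.49 for Clec9a, -0.031 to 0.070 for Esam and -0.24 to 0.23 for Cd209a. In Sle1.3 versus WT they were -0.36 to 0.17 for Itgax, -0.0050 to 0.18 for Batf3, -0.61 to 0.10 for Clec9a and -0.0037 to 0.10 for Esam. Apart from the settings' own construction, the cause was not tested.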

Other observations

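Relatives of Clec4a4 in the Clec4a lectin cluster on chromosome 6, chosen after their values were seen, were higher in Sle1.3 than in WT mice, while Clec4a4 itself was under the limit for testing. Clec4a3 was 8.14, 8.11 and 7.24 in Sle1.3/E2-2het, 8.91, 8.40 and 9.05 in Sle1.3, against 6.91 and 7.75 in WT mice. It was higher in Sle1.3 than in WT mice by 1.54 (SE 0.31, limma adjusted p = 0.00554), and in Sle1.3/E2-2het versus Sle1.3 the difference was -0.95 (SE 0.26, adjusted p = 0.155). Clec4a1 was 7.93, 7.63 and 7.53 in Sle1.3/E2-2het, 8.71, 7.90 and 8.24 in Sle1.3, against 6.96 and 7.49 in WT mice, higher in Sle1.3 than in WT by 1.11 (SE 0.24, adjusted p = 0.00752). These relatives share sequence, so a value can belong to another of them.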
